A study of Rattus norvegicus with 30 samples.

Results

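The fatty acid-binding proteins Fabp1, Fabp2, Fabp3, Fabp4, Fabp5 and Fabp7 were followed in cultured rat hepatocytes given dioctyl phthalate, a plasticiser of the phthalate diester class. The members were the 6 listed Fabp genes, found through the probe sets that the platform's gene table pairs with each. Each gene had 1 probe set, none of them shared with another gene symbol (1369111_at for Fabp1, 1369195_at for Fabp2, 1367660_at for Fabp3, 1368271_a_at for Fabp4, 1370281_at for Fabp5 and 1370024_at for Fabp7). All 6 passed the low-signal limit, a log2 signal of 7.88 on average over the arrays (signal 234), and so stood among the 10528 genes tested. For Fabp3 the mean of both vehicle groups lay under that limit, so it passed through its treated groups.

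The 6 groups, with 5 arrays each, were 48 h of vehicle, 250 µM or 1000 µM dioctyl phthalate and 24 h of vehicle, 250 µM or 1000 µM, and every group, vehicle included, received 1% DMSO. The cells were purchased frozen hepatocytes of male Sprague Dawley rats, thawed, plated on collagen under a Matrigel overlay and dosed on day 3 of culture. Each array came from a separate well, and the sources used here do not state how many animals lay behind the wells, so the p-values measure the spread between wells. The labels describe a time course and dose response of the compound.

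Fatty acid-binding proteins are small cytosolic proteins that hold a long-chain fatty acid or a related lipid inside a barrel of beta strands and carry it between membranes, mitochondria, peroxisomes and the nucleus. Each form is named for the tissue in which it is abundant: Fabp1 for liver, Fabp2 for intestine, Fabp3 for heart and skeletal muscle, Fabp4 for adipocytes (also macrophages and some endothelial cells), Fabp5 for epidermis and Fabp7 for brain. Fabp1 is the main form of hepatocytes, where fatty acids and fibrate drugs raise it through PPARα, a nuclear receptor that binds DNA together with RXR. In the RefSeq gene table of assembly GRCr8, Fabp2, Fabp4 and Fabp5 lie on chromosome 2, Fabp1 on chromosome 4, Fabp3 on chromosome 5 and Fabp7 on chromosome 20. Fabp4 has 2 other family genes, Fabp12 and Fabp9, as its neighbours, and Fabp5 lies beside Pmp2, a lipid-binding protein of myelin.

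The promoters of the 3 members that rose at both doses after 48 h are shown, each as the RefSeq (GRCr8) window of 250 bases before to 50 bases after the gene's start, on the plus strand. The windows are chr4:104749090-104749389 for Fabp1, chr5:147935875-147936174 for Fabp3 and chr2:213724379-213724678 for Fabp2. Of the 6 members, 4 matched the promoter table, the other being Fabp7. Capitals mark matches to 3 motifs searched on both strands: 2 copies of AGGNCA with 1 free base (N) between them, of the kind PPARα with RXR or HNF4 can bind, the HNF1 motif (GTTAAT, 1 free base, ATTAAC) with at most 2 mismatches, and the TATA box TATAAA.
Fabp1: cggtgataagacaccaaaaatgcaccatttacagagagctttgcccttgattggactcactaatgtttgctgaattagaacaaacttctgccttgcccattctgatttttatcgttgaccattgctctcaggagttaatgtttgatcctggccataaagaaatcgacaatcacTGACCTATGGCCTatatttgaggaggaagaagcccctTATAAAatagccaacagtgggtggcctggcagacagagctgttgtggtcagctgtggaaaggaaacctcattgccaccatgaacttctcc
Fabp3: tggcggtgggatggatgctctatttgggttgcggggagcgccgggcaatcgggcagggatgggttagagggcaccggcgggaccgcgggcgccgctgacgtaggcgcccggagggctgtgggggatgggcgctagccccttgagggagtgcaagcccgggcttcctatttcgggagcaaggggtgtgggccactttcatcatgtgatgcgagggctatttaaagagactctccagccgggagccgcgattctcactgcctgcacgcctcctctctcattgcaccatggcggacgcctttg
Fabp2: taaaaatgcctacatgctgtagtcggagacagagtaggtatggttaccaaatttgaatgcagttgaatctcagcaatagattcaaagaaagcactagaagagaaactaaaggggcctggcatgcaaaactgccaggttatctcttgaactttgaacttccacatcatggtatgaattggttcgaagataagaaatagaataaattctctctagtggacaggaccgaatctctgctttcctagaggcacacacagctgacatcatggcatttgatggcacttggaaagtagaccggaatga
The Fabp1 window held the pair of repeats at bases -77 to -65 from the start, read on the minus strand, and TATAAA at -40 to -35, and these matches do not overlap. The Fabp2, Fabp3 and Fabp7 windows held none of the 3 motifs as searched, which says only that these letters are not in these windows. Among 33469 rat promoters of the same length, 0.415% held the pair of repeats, 1.19% the HNF1 motif and 14.2% TATAAA. Of the 33 other tested genes with the pair of repeats, 8 were higher (24.2%, against 11.5% of all tested genes) and 3 lower at 1000 µM than in vehicle after 48 h, and 9 were higher (27.3%, against 15.2%) and 6 lower at 250 µM. The shares of all tested genes that were lower were 18.3% at 1000 µM and 26% at 250 µM. The median log2 change of the 33 after 48 h was -0.04 at 1000 µM and -0.06 at 250 µM, beside -0.04 and -0.07 over all tested genes. After 24 h, 5 of them were higher (15.2%) at each dose, against 8.28% of all tested genes at 1000 µM and 8.31% at 250 µM. At that time 4 were lower at 1000 µM and 3 at 250 µM, against 11.2% and 11% of all tested genes. The part of the repeats in these changes was not tested.

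Array and cell checks bear on the values that follow. Array medians ran between 8.45 and 8.79 on the log2 scale, and the correlation of log2 signals across genes between arrays of 1 group was 0.968 to 0.986. All 13 measured hepatocyte markers, albumin (Alb) and transthyretin (Ttr) among them, lay above the low-signal limit, and 7 of the 13 were lower than in vehicle after 48 h at 250 µM and 7 of the 13 at 1000 µM (6 lower and 1 higher at each dose without the 4 vehicle arrays named next). The beta-actin 3'/5' log2 ratio, which is raised where RNA is degraded or its copying stops early, averaged 1.15 ± 0.157 at 250 µM and 1.30 ± 0.137 at 1000 µM after 48 h, against 1.72 ± 0.494 in 48 h vehicle (SD, n = 5 each; exact permutation p = 0.0397 and 0.111, adjusted p = 0.0794 and 0.181 over 10 tests). In the 48 h vehicle it was 1.72 ± 0.494 and in the 24 h vehicle 1.14 ± 0.084 (SD, n = 5 each; exact permutation p = 0.0397, adjusted p = 0.0794). The Gapdh ratio was also highest in 48 h vehicle (0.219 ± 0.0545, SD, n = 5). Vehicle replicates 1, 2, 3 and 5 at 48 h carried the raised actin ratios (2.44, 1.74, 1.70 and 1.66). Results against 48 h vehicle are therefore also given without those 4 arrays, which leaves 1 vehicle array that is assumed to vary like the other groups. After 24 h, 6 of the 13 hepatocyte markers were lower than in vehicle at 250 µM and 5 of the 13 at 1000 µM, with 0 higher. The shares of all tested genes called lower were 26% at 250 µM and 18.3% at 1000 µM after 48 h. After 24 h those shares were 11% and 11.2%. In whole-culture RNA, fewer cells of a type and less RNA per cell cannot be told apart.

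After 48 h, 5 of the 6 genes were higher and 1 lower at 250 µM than in vehicle (all 6 called at a limma adjusted p under 0.05), and at 1000 µM 3 were higher and 1 lower. After 24 h, 2 were higher (Fabp1 and Fabp3) and 1 lower (Fabp5) at each dose. Fabp3, counted as higher at both times, passed the low-signal limit only through its treated groups. Its place among the tested genes was therefore not independent of its rise. The share of all tested genes called was 41.2% for 250 µM (15.2% higher, 26% lower) and 29.7% for 1000 µM (11.5% higher, 18.3% lower) at 48 h. At 24 h it was 19.3% for 250 µM (8.31% higher, 11% lower) and 19.5% for 1000 µM (8.28% higher, 11.2% lower). The median log2 change of the 6 genes was 0.71 at 250 µM and 0.54 at 1000 µM after 48 h, beside -0.07 and -0.04 over all tested genes, and after 24 h it was 0.22 at each dose, beside -0.03. Without the 4 raised vehicle arrays, 4 genes (3 higher, 1 lower) were called at 250 µM and 3 (2 higher, 1 lower) at 1000 µM after 48 h.

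**Figure D1:**
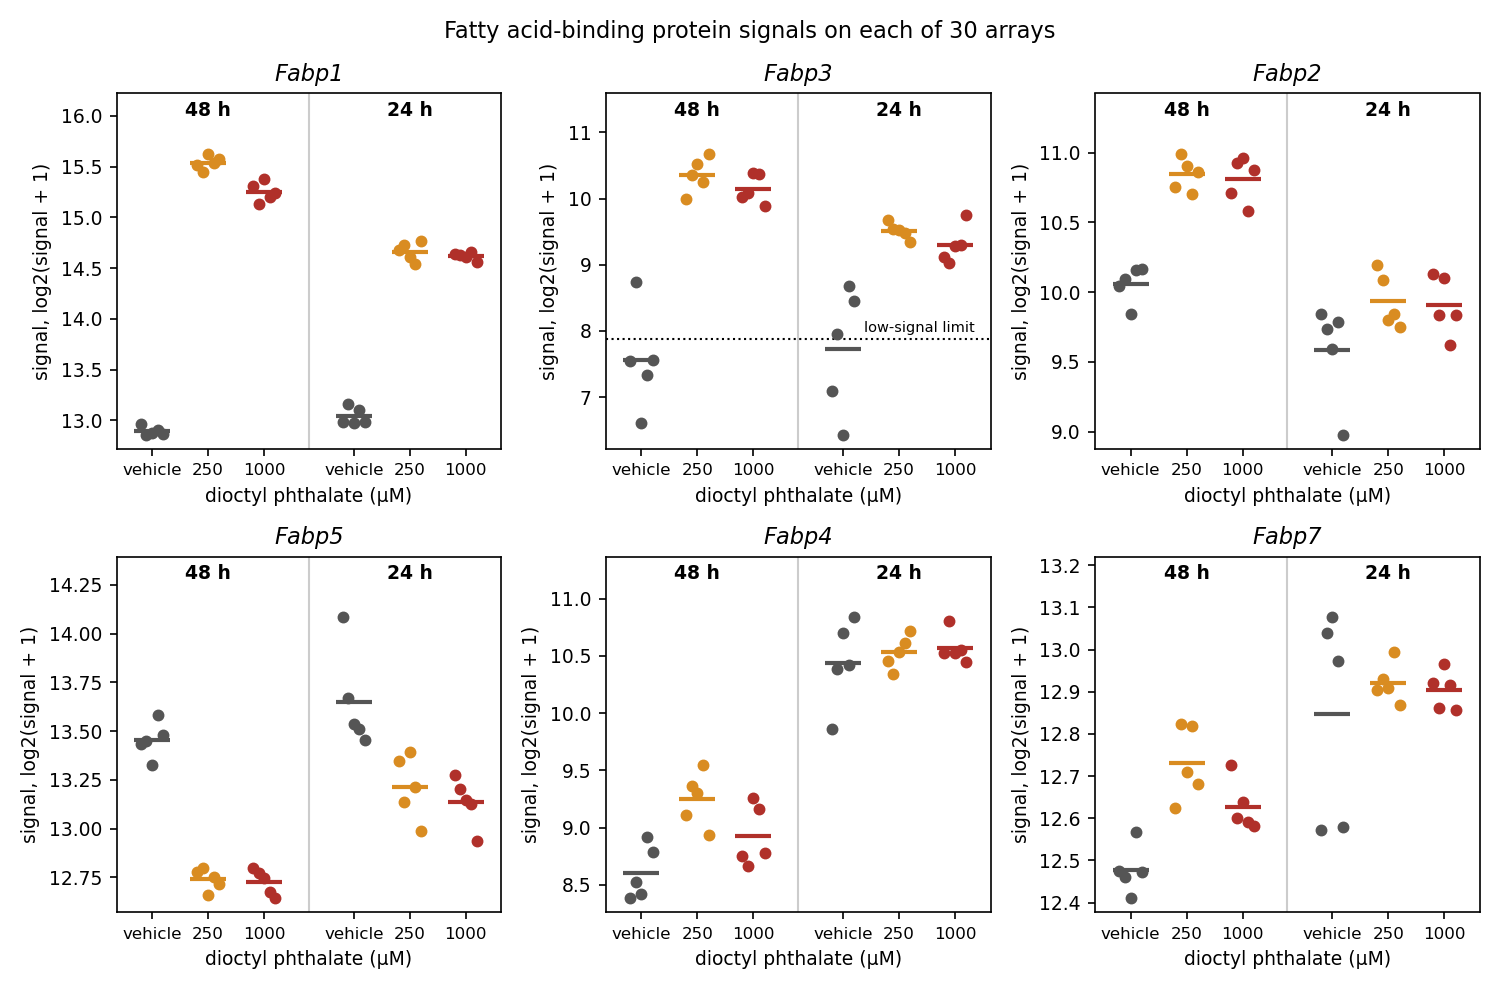
Log2(signal + 1) of each Fabp gene on each of the 30 arrays (points) with the group mean (bar), by dose in µM on the horizontal axis, 48 h on the left and 24 h on the right of each panel; the dotted line in the Fabp3 panel is the low-signal limit of 7.88. Every treated array of Fabp1 and Fabp3 lies above every vehicle array of its time, every treated array of Fabp5 lies under them, and all Fabp4 arrays of 48 h lie under those of 24 h.

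Fabp1, the liver form, rose at both doses and both times. After 48 h its signals were 7995, 7427, 7538, 7691 and 7460 in vehicle, 46854, 44732, 50553, 47392 and 48811 at 250 µM, and 40682, 35847, 42713, 37620 and 38795 at 1000 µM. After 24 h they were 8115, 9190, 8033, 8796 and 8079 in vehicle, 26239, 27065, 24976, 23905 and 27802 at 250 µM, and 25603, 25307, 25087, 25813 and 24141 at 1000 µM. The treated and vehicle arrays did not overlap at either time, and within a group the arrays differed little. The 48 h signal was 6.25-fold that of vehicle at 250 µM (log2 change 2.64 ± 0.05, SE, limma adjusted p = 1.7e-28) and 5.13-fold at 1000 µM (2.36 ± 0.05, adjusted p = 6.2e-27). At 24 h it was 3.08-fold at 250 µM (1.62 ± 0.05, adjusted p = 1.8e-22) and 2.99-fold at 1000 µM (1.58 ± 0.05, adjusted p = 4.1e-22). By size of rise Fabp1 ranked 7 of 10528 genes at 250 µM and 8 at 1000 µM after 48 h, and 29 and 30 after 24 h. From low to high its groups ran 48 h vehicle, 24 h vehicle, 24 h 1000 µM, 24 h 250 µM, 48 h 1000 µM and 48 h 250 µM, and the arrays of neighbouring groups overlapped only between the 2 doses at 24 h. Without the 4 raised vehicle arrays, and under every other alternative run, the 4 Fabp1 calls against vehicle held, with changes of 1.55 to 2.67.

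Fabp3, the heart and muscle form, is usually scarce in hepatocytes. After 48 h its signals were 186, 427, 97, 160 and 188 in vehicle, 1013, 1315, 1466, 1217 and 1634 at 250 µM, and 1036, 1083, 1341, 1316 and 944 at 1000 µM. After 24 h they were 135, 247, 85, 410 and 348 in vehicle, 818, 740, 735, 715 and 646 at 250 µM, and 551, 518, 623, 626 and 857 at 1000 µM. Every treated array lay above every vehicle array of its time, while 4 of 5 vehicle arrays at 48 h and 2 of 5 at 24 h were under the low-signal limit of 234. The fitted 48 h changes were 2.80 ± 0.31 at 250 µM (SE, limma adjusted p = 5.4e-09) and 2.59 ± 0.31 at 1000 µM (adjusted p = 3.8e-08). At 24 h they were 1.79 ± 0.31 at 250 µM (adjusted p = 3.0e-05) and 1.57 ± 0.31 at 1000 µM (adjusted p = 2.0e-04). With signals under the limit set to it, the rise was 4.95-fold at 250 µM and 4.28-fold at 1000 µM after 48 h, and 2.54-fold and 2.18-fold after 24 h. Only the 3 muscle markers Ckm, Myl2 and Mybpc3 of 8 measured were above the limit, those of heart myosin and troponin (Myh6, Myh7, Tnni3 and Tnnt2) and myoglobin (Mb) were under it, and none was called against vehicle at either dose or time (limma; their smallest adjusted p was 0.240). Mybpc3, a myosin-binding protein of heart muscle, changed by 0.53 at 250 µM and 0.38 at 1000 µM after 48 h with all vehicle arrays. Against the 1 vehicle array left without the 4 raised ones, Mybpc3 was higher by 2.50 and 2.36, values that rest on that array. Its part in the rise of Fabp3 was not tested. The summed signal of all 8 ran from 1458 to 2120 in vehicle, 1666 to 2055 at 250 µM and 1335 to 2209 at 1000 µM after 48 h. The low signals of vehicle set the order of its 2 lowest groups, whose arrays overlapped, and the arrays of the 2 doses overlapped at each time.

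Fabp2, the intestinal form, rose after 48 h. Its 48 h signals were 1052, 1092, 919, 1142 and 1145 in vehicle, 1728, 2035, 1921, 1670 and 1855 at 250 µM, and 1677, 1948, 1989, 1535 and 1877 at 1000 µM, with no treated array inside the vehicle range. That is 1.72-fold at 250 µM (log2 change 0.78 ± 0.13, SE, limma adjusted p = 9.2e-06) and 1.68-fold at 1000 µM (0.75 ± 0.13, adjusted p = 2.7e-05). At 24 h the signals were 920, 852, 772, 882 and 503 in vehicle, 1171, 1087, 892, 917 and 861 at 250 µM, and 1120, 913, 1099, 786 and 912 at 1000 µM, and the groups overlapped. The 24 h changes did not pass the threshold (0.35, 95% interval 0.08 to 0.61, adjusted p = 0.0563 at 250 µM, and 0.32, interval 0.05 to 0.58, adjusted p = 0.0864 at 1000 µM). They passed it without 1 array in 6 fits: at 250 µM without vehicle replicate 1 (0.41), 2 (0.38) or 4 (0.40) or 250 µM replicate 5 (0.39), and at 1000 µM without vehicle replicate 1 (0.38) or 1000 µM replicate 4 (0.39). Without the 4 raised 48 h vehicle arrays the 48 h change was 0.69 (adjusted p = 0.0481) at 250 µM and 0.65 (adjusted p = 0.0691, past the threshold no longer) at 1000 µM. Of 5 measured enterocyte markers Alpi and Slc5a1 were under the limit and none of the other 3 (Vil1, Apoa4, Cdx2) was called against vehicle. In vehicle Vil1 was higher at 48 h than at 24 h (1.49, adjusted p = 0.0305), a call lost without the 4 raised arrays (1.43, adjusted p = 0.698). Its part in the change of Fabp2 with time was not tested. From low to high the Fabp2 groups ran 24 h vehicle, 24 h 1000 µM, 24 h 250 µM, 48 h vehicle, 48 h 1000 µM and 48 h 250 µM, and only 48 h vehicle and 48 h 1000 µM did not overlap as neighbours.

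Fabp5, the epidermal form, was the 1 member that fell against vehicle. Its 48 h signals were 11063, 11166, 10261, 12284 and 11440 in vehicle, 7023, 7124, 6457, 6887 and 6733 at 250 µM, and 7130, 7005, 6877, 6533 and 6393 at 1000 µM. At 24 h they were 17362, 13053, 11877, 11678 and 11226 in vehicle, 10411, 8988, 10751, 9511 and 8109 at 250 µM, and 9926, 9424, 9066, 8925 and 7831 at 1000 µM. All treated arrays lay under all vehicle arrays of their time, and vehicle replicate 1 at 24 h was above the rest. The signal was 39.0% lower at 250 µM (log2 change -0.71 ± 0.09, SE, limma adjusted p = 3.5e-08) and 39.6% lower at 1000 µM (-0.73 ± 0.09, adjusted p = 3.6e-08) after 48 h. After 24 h it was 26.1% lower at 250 µM (-0.44 ± 0.09, adjusted p = 2.0e-04) and 30.0% lower at 1000 µM (-0.51 ± 0.09, adjusted p = 2.1e-05). The 4 calls held under every alternative run, without the 4 raised arrays among them (-0.84 at 250 µM and -0.86 at 1000 µM after 48 h). Of 5 measured keratinocyte markers Krt5 alone was above the limit, and it was not called against vehicle. The summed signal of the 5 ran from 809 to 1424 in vehicle, 504 to 1077 at 250 µM and 558 to 1136 at 1000 µM after 48 h. Fabp5 has 2 pseudogenes in the RefSeq table (Fabp5-ps2 and Fabp5-ps3) that could share probe sequence, which was not tested.

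Fabp4, the adipocyte form, changed with culture time more than with dose. After 48 h its signals were 333, 367, 341, 483 and 439 in vehicle, 550, 657, 631, 746 and 488 at 250 µM, and 430, 406, 610, 571 and 438 at 1000 µM. After 24 h they were 928, 1338, 1660, 1369 and 1827 in vehicle, 1399, 1300, 1484, 1567 and 1681 at 250 µM, and 1471, 1791, 1469, 1498 and 1395 at 1000 µM. At 48 h the 250 µM arrays all lay above vehicle, the 1000 µM arrays overlapped it, and at 24 h all 3 groups overlapped. The 48 h change was 0.65 ± 0.15 at 250 µM (SE, limma adjusted p = 8.4e-04) and 0.32 at 1000 µM (95% interval 0.01 to 0.63, adjusted p = 0.116), and it passed at 1000 µM without vehicle replicate 4 (0.40, adjusted p = 0.0495). The 250 µM call was lost without the 4 raised vehicle arrays (0.33, adjusted p = 0.491) and in the fit with the actin ratio added as a covariate (0.44, adjusted p = 0.0823). The 24 h changes were 0.09 (95% interval -0.22 to 0.40) at 250 µM and 0.13 (-0.18 to 0.44) at 1000 µM.

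Fabp7, the brain form, moved least. After 48 h its signals ran from 5443 to 6067 in vehicle, 6311 to 7248 at 250 µM and 6128 to 6779 at 1000 µM, and the treated arrays did not overlap vehicle. The change was 0.25 ± 0.07 at 250 µM (SE, limma adjusted p = 0.00507) and 0.15 at 1000 µM (95% interval 0.00 to 0.30, adjusted p = 0.12). The 250 µM call was lost without the 4 raised vehicle arrays (0.16, adjusted p = 0.502) and with each array centred on its median (0.26, adjusted p = 0.0674). At 24 h the signals were 6086, 8412, 8636, 8045 and 6116 in vehicle, 7476 to 8166 at 250 µM and 7418 to 7999 at 1000 µM, so vehicle replicates 1 and 5 lay under all treated arrays and the other 3 among or above them. Of 6 measured glial markers Sox10 and Aqp4 were under the limit, and Slc1a3, a glutamate transporter, was lower than in vehicle at both doses after 48 h (-0.64 at 250 µM, -0.50 at 1000 µM). Neither Slc1a3 call held without the 4 raised arrays (-0.60, adjusted p = 0.259 at 250 µM and -0.46, adjusted p = 0.449 at 1000 µM).

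**Figure D2:**
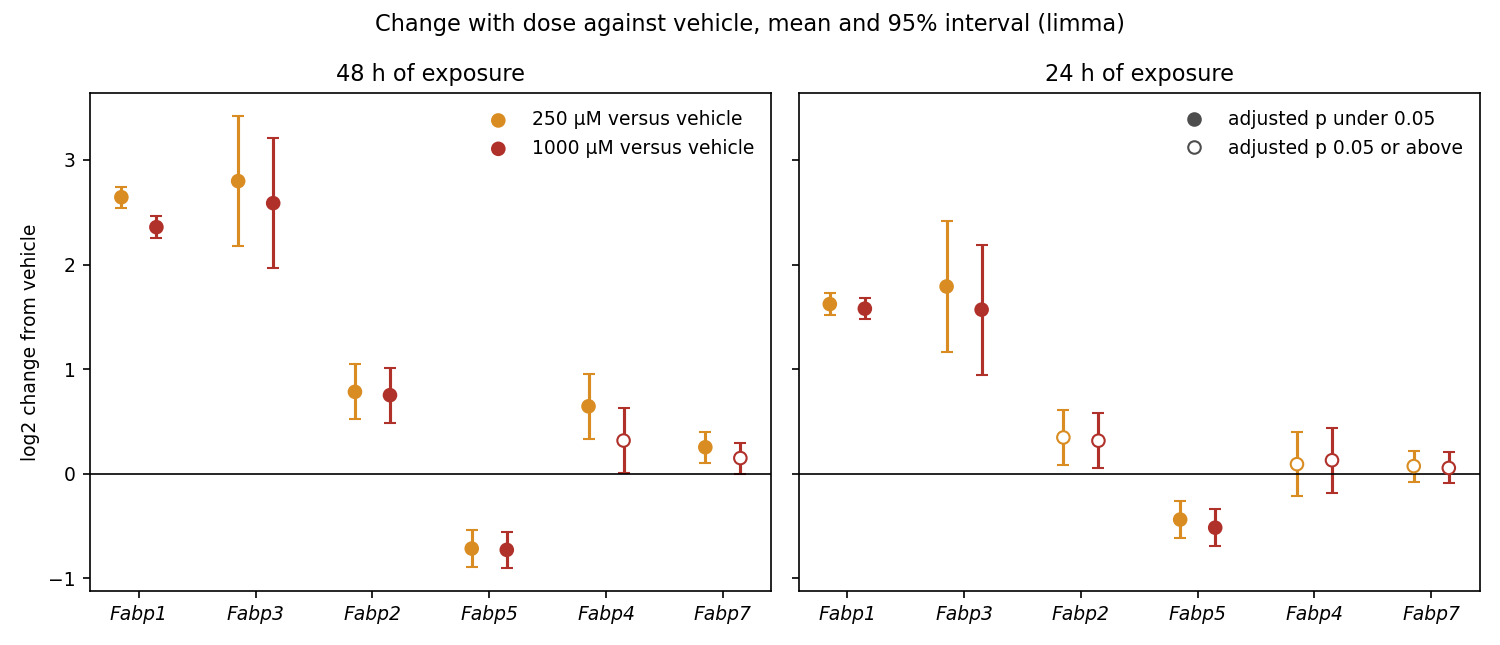
Log2 change from vehicle for each Fabp gene at 250 µM and 1000 µM, with 95% intervals from limma (5 arrays per group), after 48 h on the left and 24 h on the right; filled points passed an adjusted p of 0.05. Fabp1 and Fabp3 lie between 1.57 and 2.80, Fabp5 lies under 0 in all 4 comparisons, and Fabp2, Fabp4 and Fabp7 passed only at 48 h, Fabp4 and Fabp7 only at 250 µM.

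The doses were compared directly. At 48 h, Fabp1 signals of 35847 to 42713 at 1000 µM lay under those of 44732 to 50553 at 250 µM, 18.0% lower (log2 change -0.29 ± 0.05, SE, limma adjusted p = 0.0116). It was 1 of 7 genes called in that comparison, 0.0665% of those tested (0.038% higher, 0.0285% lower). The call was lost without 1000 µM replicate 2 (-0.26, adjusted p = 0.0692), without 250 µM replicate 3 (-0.26, adjusted p = 0.0541) or 5 (-0.28, adjusted p = 0.0551), with array medians centred (-0.32, adjusted p = 0.508), with quantile normalization (-0.18, adjusted p = 0.101) and with only those 2 groups in the fit (-0.29, adjusted p = 0.0551). The other 5 genes did not pass at 48 h. Their differences were -0.21 for Fabp3 (95% interval -0.83 to 0.41), -0.03 for Fabp2 (-0.30 to 0.23) and -0.01 for Fabp5 (-0.19 to 0.16). Fabp4 differed by -0.33 (-0.64 to -0.02) and Fabp7 by -0.10 (-0.25 to 0.04). At 24 h no member passed (limma; 2 of all genes did, 0.019%), and the member differences ran from -0.22 for Fabp3 to 0.04 for Fabp4. None of the 6 had an unadjusted p under 0.05 at 24 h.

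Culture time moved the members apart. In vehicle, Fabp4 fell to 333 to 483 at 48 h, against 928 to 1827 at 24 h, a signal 72.0% lower (log2 change -1.84 ± 0.15, SE, limma adjusted p = 1.2e-10) and the fall of rank 6 among 10528 genes. It was 58.9% lower at 48 h than at 24 h under 250 µM (-1.28 ± 0.15, adjusted p = 1.2e-07) and 68.1% lower under 1000 µM (-1.65 ± 0.15, adjusted p = 9.9e-10). The calls held under every alternative run, at -1.20 to -1.98. Of the cell types that make Fabp4, adipocytes had 3 of 7 measured markers above the limit (Lipe, Cfd and Cidea) and the defining Adipoq, Plin1 and Lep under it. In vehicle Cfd was lower (-1.34) and Cidea higher (0.15) at 48 h than at 24 h. Cidea was also higher with time under 250 µM (0.31). Liver endothelium had 2 of 6 (Kdr and Lyve1), with Pecam1, Vwf, Stab2 and Tek under the limit, and in vehicle both were lower at 48 h than at 24 h (-0.78 and -0.83), as was Lyve1 under 250 µM (-1.11, adjusted p = 1.2e-04) and 1000 µM (-1.04, adjusted p = 2.7e-04). The summed signal of all 6 ran from 713 to 1390 at 48 h and 919 to 1859 at 24 h in vehicle, 774 to 1441 and 1497 to 1687 under 250 µM, and 1125 to 1538 and 1328 to 1606 under 1000 µM. Kupffer cells and leukocytes had 5 of 10 above the limit, with Ptprc, Cd163 and Itgam under it and Clec4f (-0.76) and Cd14 (-0.31) lower at 48 h than at 24 h in vehicle, and Cd68 (-0.55) and Lyz2 (-0.28) lower under 1000 µM. None of the 5 was called with time under 250 µM. Over all tested genes, 16.4% were higher and 11.7% lower with time in vehicle. These shares were 6.86% and 6.52% under 250 µM, and 9.91% and 8.11% under 1000 µM. With the 1 vehicle array that is left at 48 h without the 4 raised ones, the values in vehicle were -1.52 for Fabp4, which passed, and -0.96 for Kdr and -0.85 for Lyve1, which did not. Clec4f (-0.15), Cd14 (-0.29), Cfd (-0.37) and Cidea (0.26) did not pass either. The part of these cell types in the fall of Fabp4 was not tested.

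The other members changed less with time. In vehicle 1 gene was higher (Fabp2, 0.47 ± 0.13, SE, limma adjusted p = 0.0062) and 3 were lower at 48 h than at 24 h (Fabp4, Fabp7 at -0.37 ± 0.07 and Fabp1 at -0.15 ± 0.05), where 28.1% of all genes were called (16.4% higher, 11.7% lower). Without the 4 raised vehicle arrays only Fabp4 was called, with Fabp2 at 0.57, Fabp7 at -0.28 and Fabp1 at -0.13. With array medians centred, 2175 genes were called in vehicle (1704 higher, 471 lower), in place of 2963 (1731 higher, 1232 lower). The Fabp1 fall in vehicle was also lost without replicate 2 (-0.11) or 4 (-0.13) of 24 h vehicle and without replicate 2 (-0.14), 3 (-0.14) or 5 (-0.14) of 48 h vehicle. Fabp5 in vehicle (-0.20 ± 0.09, adjusted p = 0.0821) passed without replicate 4 of 48 h vehicle (-0.23) or replicate 5 of 24 h vehicle (-0.25). Under 250 µM 2 were higher at 48 h than at 24 h (Fabp1 by 0.88 ± 0.05, Fabp2 by 0.91 ± 0.13) and 2 lower (Fabp4, and Fabp5 by -0.47 ± 0.09), where 13.4% of all genes were called (6.86% higher, 6.52% lower). Under 1000 µM 3 were higher (Fabp1 by 0.63 ± 0.05, Fabp2 by 0.91 ± 0.13, Fabp3 by 0.86 ± 0.31) and 3 lower (Fabp4, Fabp5 by -0.41 ± 0.09, Fabp7 by -0.28 ± 0.07), where 18% were called (9.91% higher, 8.11% lower). The Fabp3 rise under 1000 µM stood at an adjusted p of 0.0471 and was lost in 20 of the 30 fits that leave out 1 array (0.79 to 0.97, adjusted p 0.0202 to 0.104). The limma spread behind it is shared by all groups, those of vehicle included. For Fabp3 the log2 SD was 0.77 and 0.95 in vehicle at 48 h and 24 h, and 0.22 and 0.28 under 1000 µM. Under 1000 µM its 48 h arrays all lay above its 24 h arrays.

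**Figure D3:**
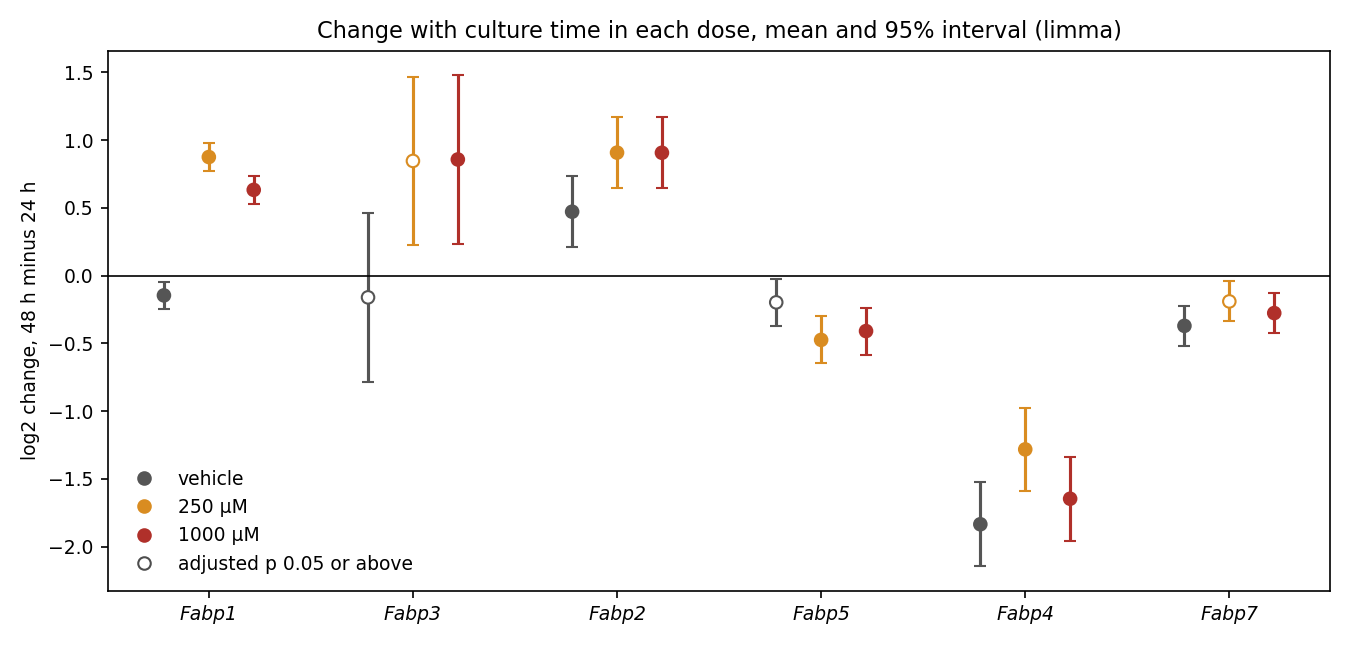
Log2 change between 48 h and 24 h (48 h minus 24 h) for each Fabp gene in vehicle, 250 µM and 1000 µM, with 95% intervals from limma (5 arrays per group); open points did not pass an adjusted p of 0.05. Fabp4 lies lowest at -1.84 to -1.28, Fabp2 lies above 0 in all 3 groups, and Fabp1 is at -0.15 in vehicle but at 0.88 and 0.63 under the 2 doses.

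Whether the dose effect itself differed between times was tested for each gene. Only Fabp1 passed (limma), with an effect larger at 48 h than at 24 h by 1.02 ± 0.07 at 250 µM (SE, adjusted p = 1.9e-11) and 0.78 ± 0.07 at 1000 µM (adjusted p = 1.3e-08). Of all genes, 8.36% were called for 250 µM (3.84% higher, 4.52% lower) and 0.969% for 1000 µM (0.522% higher, 0.446% lower), and Fabp1 was called in all 46 alternative fits. The difference for Fabp3 was of like size but less precise, 1.01 (95% interval 0.13 to 1.89) at 250 µM and 1.02 (0.14 to 1.90) at 1000 µM. It passed when signals under the limit were set to it (0.96 at 250 µM and 0.98 at 1000 µM, adjusted p = 0.0142 and 0.0464), and at 250 µM without replicate 2 of 48 h vehicle (1.30) or replicate 3 of 24 h vehicle (1.33). Setting signals to the limit gives 1 value to 4 of 5 vehicle arrays at 48 h and 2 of 5 at 24 h. That lowers their spread, so the p-values of that setting do not measure the spread between wells. The 250 µM differences of other members also crossed the threshold when 1 vehicle array was left out: Fabp4 (0.70) and Fabp5 (-0.39) without 24 h replicate 1, Fabp4 (0.63) without 48 h replicate 4, and Fabp2 (0.59) without 24 h replicate 5.

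Likeness to each member was measured as the root mean square difference of the 6 group means of log2 signal, each gene centred on its own mean, over 30 arrays. The gene nearest to Fabp1 was Fabp3 (0.094), and the gene nearest to Fabp3 was Fabp1, which was rank 1 or 2 under every alternative that gave a value. Slc6a13, a transporter of GABA and taurine, came next for both (0.195 from Fabp1, 0.208 from Fabp3), followed by the glycerol channel Aqp7 for Fabp1 (0.221) and the carnitine palmitoyltransferase Cpt1b for Fabp3 (0.209). Fabp2 was nearest to Lpl, lipoprotein lipase (0.053), then Gstm7 (0.096) and Csad (0.108). Fabp4 was nearest to Spink1l (0.131), Esm1, a proteoglycan secreted by endothelial cells (0.152), and Serpina3l (0.192), which fell by 1.59, 1.36 and 1.53 at 48 h against 24 h in vehicle. Fabp5 was nearest to Srxn1, sulfiredoxin (0.046), S100a13 (0.058) and Arl6ip5 (0.066), and Fabp7 to Lgals9 (0.015), Smim10l1 (0.024) and Rraga (0.026). Over the alternatives the ranks ran from 1 to 710 for Srxn1, 1 to 23 for S100a13 and 1 to 211 for Arl6ip5 in likeness to Fabp5. In likeness to Fabp7 they ran from 1 to 221 for Lgals9, 1 to 240 for Smim10l1 and 2 to 821 for Rraga. For Fabp2 they ran from 1 to 23 for Lpl, 1 to 6 for Gstm7 and 2 to 7 for Csad. Aqp7 ranged from rank 2 to 11 for Fabp1, Cpt1b from 1 to 20 and Slc6a13 from 2 to 11 for Fabp3, Slc6a13 from 1 to 4 for Fabp1, and the 3 genes nearest to Fabp4 from 1 to 4. These distances describe the 6 group means and carry no test, and a gene with a small range, such as Fabp7 with 0.44, is near to more genes. Both vehicle means of Fabp3 lay under the low-signal limit, with a log2 SD of 0.77 at 48 h and 0.95 at 24 h. Its distances are therefore less exact than their digits.

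**Figure D4:**
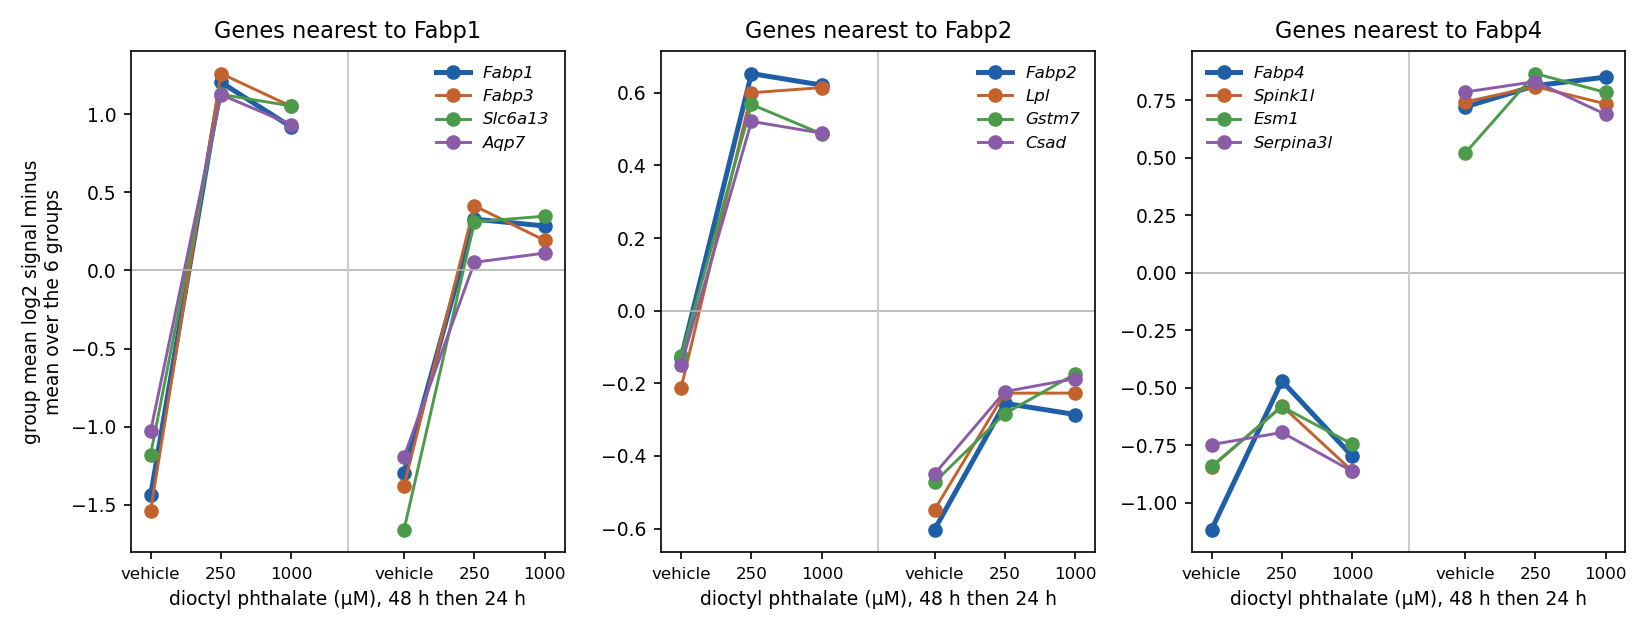
Group mean log2 signal minus the gene's mean over the 6 groups, by dose in µM with 48 h left of 24 h in each panel, for Fabp1, Fabp2 and Fabp4 (thick lines) and the 3 genes nearest to each. Fabp3 follows Fabp1 most closely, at a root mean square difference of 0.094, with both Fabp3 vehicle means under the low-signal limit. The genes nearest to Fabp4 share its lower level at 48 h.

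Other intracellular lipid-binding proteins of the same fold were mostly unmeasurable. Of 8 on the array, 5 (Fabp6, Fabp9, Pmp2, Crabp2 and Rbp2) were under the limit, Crabp1 was not called, Fabp12 rose and Rbp7, a retinol carrier, fell after 48 h. Fabp12, the neighbour of Fabp4, changed by 0.60 ± 0.11 at 250 µM (SE, limma adjusted p = 4.2e-05) and 0.43 ± 0.11 at 1000 µM (adjusted p = 0.0028), and Rbp7 by -0.44 ± 0.16 and -0.61 ± 0.16. The Rbp7 call at 250 µM was lost with quantile normalization (-0.33, limma adjusted p = 0.114). It was also lost without replicate 2, 3, 4 or 5 of 48 h vehicle or replicate 1 or 5 of 48 h 250 µM (-0.43 to -0.36). In vehicle, Fabp12 was lower at 48 h than at 24 h (-0.74), while under 250 µM (0.11) and 1000 µM (-0.15) the change did not pass. The 1000 µM changes of Fabp12 (0.43) and Rbp7 (-0.77) and the 250 µM change of Rbp7 (-0.60) did not pass without the 4 raised arrays.

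Other lipid carriers split in direction. After 48 h, 6 of 16 tested were higher and 5 lower than in vehicle at 250 µM (median log2 change 0.10, all genes -0.07), and 4 higher and 4 lower at 1000 µM (0.00, all genes -0.04). Over all tested genes 15.2% were higher and 26% lower at 250 µM, and 11.5% and 18.3% at 1000 µM. Pctp, the phosphatidylcholine transfer protein, rose by 1.70 ± 0.08 at 250 µM and 1.56 ± 0.08 at 1000 µM (SE). Hsd17b4 and Scp2, peroxisomal proteins that share a sterol carrier domain, rose by 0.89 and 0.55 at 250 µM and by 0.78 and 0.39 at 1000 µM. Dbi, which carries acyl-CoA, rose by 0.42 at 250 µM and 0.30 at 1000 µM, and Acbd3, a Golgi protein with an acyl-CoA binding domain, fell by 0.49 and 0.37. Leaving out the 4 raised arrays, 4 (all higher) were called at 250 µM and 3 (all higher) at 1000 µM, and Dbi (0.26 and 0.15), Acbd3 (-0.13 and 0.00) and, at 1000 µM, Scp2 (0.31, adjusted p = 0.0932) were not. Acbd3 was not called either with the mean of its probe sets (-0.28 at 250 µM and -0.27 at 1000 µM, adjusted p = 0.0838 and 0.126) or with its most variable probe set (-0.077 and -0.13, adjusted p = 0.873 and 0.797).

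Genes of fatty acid uptake and activation also moved both ways, 7 of 17 tested higher and 4 lower than in vehicle at 250 µM and 7 higher and 3 lower at 1000 µM after 48 h (medians 0.00 and 0.05). The shares of all tested genes were 15.2% higher and 26% lower at 250 µM, and 11.5% and 18.3% at 1000 µM (medians -0.07 and -0.04). The acyl-CoA synthetases Acsl1 (1.93 at 250 µM, 1.80 at 1000 µM) and Acsl3 (1.35 and 1.33) and the very long chain synthetase Slc27a2 (0.52 and 0.44) rose, and the caveolin Cav1 fell (-1.35 and -1.39). The fatty acid translocase Cd36 rose by 1.12 ± 0.15 at 250 µM and 1.10 ± 0.15 at 1000 µM (SE, limma adjusted p = 1.5e-07 and 3.3e-07). The Cd36 change was 0.57 (adjusted p = 0.0528) at 250 µM and 0.54 (adjusted p = 0.0741) at 1000 µM without the 4 raised arrays, and 5 genes were higher and 2 lower at each dose.

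Among nuclear receptors and factors that sense fatty acids or bind Fabp promoters, 4 of 19 tested were higher and 5 lower than in vehicle at 250 µM and 6 higher and 3 lower at 1000 µM after 48 h (medians 0.05 and 0.07). Of all tested genes, 15.2% were higher and 26% lower at 250 µM, and 11.5% and 18.3% at 1000 µM (medians -0.07 and -0.04). Rxrg, a partner of PPARs, rose by 0.97 at 250 µM and 0.93 at 1000 µM, Nr1h4, the bile acid receptor, by 0.70 and 0.61, and Cebpb by 0.63 and 0.51, while Rarb fell (-0.58 and -0.48). Ppara was called only at 1000 µM (1.93 ± 0.55, SE, limma adjusted p = 0.0072; 0.96 ± 0.55, adjusted p = 0.167 at 250 µM), with a 48 h vehicle mean of 6.74 on the log2 scale, under the limit. Its 250 µM change passed without 250 µM replicate 4 (1.51, adjusted p = 0.0195), and neither dose passed without the 4 raised arrays (1.90, adjusted p = 0.281 at 1000 µM). Pparg changed by -0.16 at 250 µM and -0.13 at 1000 µM and did not pass. Hnf4a, a factor of hepatocyte genes, changed by -0.41 at 250 µM (adjusted p = 0.0011) and -0.23 at 1000 µM (adjusted p = 0.0749), and the 250 µM value was 0.09 without the 4 raised arrays and 0.21 with its most variable probe set, neither called. Without those arrays 3 were higher and 2 lower at 250 µM and 5 higher and 2 lower at 1000 µM, Rarb (-0.14 and -0.05) no longer among them.

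Genes outside the family that PPARs are known to regulate rose with Fabp1. Of 32 tested, 29 were higher and 0 lower than in vehicle at 250 µM and 28 higher and 0 lower at 1000 µM after 48 h, with median log2 changes of 1.01 and 0.90, and 28 higher and 0 lower at each dose after 24 h (medians 1.04 and 1.01). After 48 h, 26 at 250 µM and 24 at 1000 µM were higher and 0 lower without the 4 raised arrays. With every array kept, 15.2% of all tested genes were higher and 26% lower at 250 µM after 48 h, and 11.5% and 18.3% at 1000 µM. Their medians were -0.07 and -0.04. After 24 h, 8.31% of all tested genes were higher and 11% lower at 250 µM, and 8.28% and 11.2% at 1000 µM (median -0.03 at each dose). Aqp7 (2.15 at 250 µM, 1.96 at 1000 µM), the fatty acid omega-hydroxylase Cyp4a1 (2.24 and 2.13) and Cpt1b (2.39 and 2.34) rose about as much as Fabp1 (2.64 and 2.36) after 48 h, while Acot1, an acyl-CoA thioesterase with near-identical neighbours, rose by 6.68 and 6.18. The list was chosen with earlier results of these data known, so its direction is no independent evidence.

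Of the remaining marker lists, against vehicle after 48 h, 2 of 3 tested adipocyte markers were higher at each dose (Cfd and Cidea, and Cidea is also on the PPAR list), and 0 of 2 endothelial, 0 of 3 muscle, 0 of 3 enterocyte and 0 of 1 keratinocyte markers were called. The summed signal of all 7 adipocyte markers ran from 17264 to 20107 in vehicle, 27805 to 31043 at 250 µM and 24821 to 27868 at 1000 µM. Of 5 Kupffer cell and leukocyte markers, 1 was higher and 0 lower at 250 µM, and 1 higher and 1 lower at 1000 µM. Of 5 stellate cell markers, 1 was higher at 250 µM and 1 lower at 1000 µM, the 1 cholangiocyte marker (Epcam) was lower at 1000 µM, and 1 of 4 glial markers was lower at each dose. Over all tested genes 15.2% were higher and 26% lower at 250 µM, and 11.5% and 18.3% at 1000 µM. Beside those shares, counts from so few markers say little about a cell type. With the 4 raised arrays left out, the calls at 250 µM were Cidea, Cd14 and Mybpc3 higher and Epcam lower. At 1000 µM they were Cidea and Mybpc3 higher and Epcam lower. There was then none among the endothelial, stellate, enterocyte, glial and keratinocyte markers. That fit keeps 1 vehicle array at 48 h, and Mybpc3 was not called with all arrays. The part of these cell types in the changes of the Fabp genes was not tested.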

How the data were processed

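RNA of 30 wells was measured on rat expression arrays of probe sets, 1 array per well. The deposited values are linear intensities, 1 per probe set, made by the authors with MAS5 per the submitters' processing notes, and their trimmed mean is 1500.6 to 1500.7 on every array, so signals are comparable only as shares of an array's total. A fold change of low signals is understated by the pseudocount and is less precise. From the deposited intensity, log2(signal + 1) was computed, and 57 control probe sets and the lowest 40% by mean log2 signal were left out. Of 18625 probe sets kept, 14112 had 1 gene symbol, 340 several and 4173 none; the probe set of highest mean stood for each of 10528 genes. The number of arrays limits the precision.

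limma 3.58.1 (R 4.3.3) fitted the mean of each group to the 30 arrays together (eBayes with trend, 24 residual degrees of freedom), and 11 contrasts were adjusted by Benjamini-Hochberg over the 10528 genes, a call being an adjusted p under 0.05. Array quality was compared with exact two-sided permutation tests, whose smallest p for 5 against 5 is 0.00794. Promoters came from RefSeq (GRCr8), Python 3.11.15 searched them and matplotlib 3.10.9 drew the plots. The procedure was tested on simulated data with independent normal noise for each gene. Those data hold no shift of RNA quality like that of the 4 raised vehicle arrays, so the test does not cover it. Named genes were all 6 members, the 3 genes nearest to each, and from each pathway list at most 4 called genes of smallest p at 1000 µM, 48 h, with Ppara, Pparg, Hnf4a, Cd36, Dbi and Scp2 where measured. Marker genes were named after their values were seen, where a count was small. The members and lists were chosen with earlier results of these data known. Alternatives changed the pseudocount, filter, scaling, gene summary, variance model and samples, left out each array in turn, used the actin ratio as a covariate or left out the 4 vehicle arrays of raised ratio, which were known from earlier results. A fit with runs of consecutive serial numbers as a block was added after seeing the data.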

Additional observations from a re-analysis of the deposited data

Results flagged for a closer look

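The effect of dioctyl phthalate on Fabp1 differed between the times by the interaction test, by 0.779 (log2) at 1000 µM and 1.021 at 250 µM, larger at 48 h than at 24 h in both. These were 2 of 12 such tests over the 6 genes. One array stood far from the others of its group: Fabp4 in replicate 2 of 1000 µM at 24 h had a log2 signal of 10.81, with the nearest array at 10.55, a gap of 0.716 of the group's range against a bound of 0.71. It was 1 of 36 groups checked, and chance gives about 1 in 20.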

How the results depend on the processing

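The labels give each well a serial number, and consecutive runs of 6 hold 1 array of each group. Nothing says that a run was a batch. Arrays of the same run deviated from their group means with a correlation of -0.12 to 0.22 (median 0.041), over 0.1 in 19 of 75 pairs. In 29 of the 75 pairs the array of the same run correlated best among those of the 5 runs. With the run as a replicate block, an alternative chosen after seeing the data, Fabp5 with time in vehicle passed (-0.20), no other member call changed, and no count of all genes moved by over 1.5 times. All dose calls of Fabp1, Fabp3 and Fabp5 against vehicle, the 250 µM call of Fabp2 at 48 h, the 3 Fabp4 falls with time and both Fabp1 differences between times held in every fit that gave a value, of 46 (Fabp3 in 45, since the filter on the lowest 60% removed it).

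Fabp3 under 250 µM (48 h minus 24 h) passed with a pseudocount of 16 (0.83) or 64 (0.80), with low signals set to the limit (0.85), without the 4 raised vehicle arrays (0.85) and with only its groups fitted (0.85). Fabp3 under 1000 µM did not pass with no filter (0.86), a 20% filter (0.86), medians centred (0.85), quantile normalization (0.82), the mean (0.86) or most variable probe set (0.86), no trend (0.86) or the actin covariate (0.86). With low signals set to the limit, which lowers the spread of the vehicle arrays, the Fabp3 difference between times passed at 1000 µM (0.98) and 250 µM (0.96), giving 2 members each. Fabp2 at 250 µM, 24 h, passed with a 60% filter (0.35) and quantile normalization (0.40). Medians centred ended the calls of Fabp7 at 250 µM, 48 h (0.26), Fabp7 under 1000 µM (-0.28), Fabp1 in vehicle (-0.079) and Fabp1 between doses at 48 h (-0.32), which was also lost with quantile normalization (-0.18) and with only its groups fitted (-0.29), leaving 0 members. The actin covariate ended Fabp4 at 250 µM, 48 h (0.44) and Fabp1 in vehicle (-0.16), and fitting only its groups ended the Fabp1 call in vehicle (-0.15) and made one for Fabp7 under 250 µM (-0.19). Without the 4 raised vehicle arrays, calls were lost for Fabp2 at 1000 µM (0.65), Fabp4 (0.33) and Fabp7 (0.16) at 250 µM, and, in vehicle with time, Fabp1 (-0.13), Fabp2 (0.57) and Fabp7 (-0.28), leaving 1 member. That fit keeps 1 vehicle array at 48 h and is less precise, so a call can be lost there though the change is not smaller. With all arrays the same changes were 0.75 (Fabp2), 0.65 (Fabp4) and 0.25 (Fabp7) against vehicle. With time in vehicle they were -0.15 (Fabp1), 0.47 (Fabp2) and -0.37 (Fabp7). The cause of the changes in calls was not tested.

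Leaving out 1 array gave -0.32 to -0.26 for Fabp1 between doses at 48 h and -0.16 to -0.11 for it in vehicle, 0.16 to 0.39 and 0.19 to 0.41 for Fabp2 at 1000 µM and 250 µM, 24 h, 0.79 to 0.97 and 0.77 to 0.94 for Fabp3 with time under 1000 µM and 250 µM, 0.24 to 0.40 for Fabp4 at 1000 µM, 48 h, -0.25 to -0.089 for Fabp5 in vehicle and -0.21 to -0.16 for Fabp7 under 250 µM. Differences between times at 250 µM ran 0.37 to 0.59 (Fabp2), 0.77 to 1.33 (Fabp3), 0.45 to 0.70 (Fabp4) and -0.39 to -0.23 (Fabp5), with 1 to 3 members called, and 0 to 1 member was called between doses at 48 h.

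Signs turned for Hnf4a at 250 µM, 48 h (0.21 with the most variable probe set, 0.093 without the 4 arrays), for Arl6ip5 in the differences between times with the most variable probe set (0.055 at 1000 µM, 0.11 at 250 µM), and without the 4 arrays for Lgals9 (-0.028), Smim10l1 (-0.043) and Rraga (-0.11) at 250 µM, 48 h, and Rarb in vehicle (-0.091).

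Counts over all genes moved more than those of the members. With array medians centred, 1291 genes were called at 1000 µM, 24 h (682 higher, 609 lower) in place of 2051 (872 higher, 1179 lower), 1332 at 250 µM, 24 h in place of 2030, 773 with time under 250 µM (533 higher, 240 lower) in place of 1408 (722 higher, 686 lower), 876 with time under 1000 µM in place of 1897, and in vehicle 2175 (1704 higher, 471 lower) in place of 2963 (1731 higher, 1232 lower). Without the 4 raised arrays, 1177 were called at 1000 µM, 48 h in place of 3132, 1380 at 250 µM, 48 h in place of 4342 and 146 with time in vehicle in place of 2963. The actin covariate gave 2782 at 250 µM, 48 h and 749 with time in vehicle, and fitting only its groups 1902. Over all alternatives the differences between times ran from 16 to 322 genes at 1000 µM (102 as reported) and 58 to 1789 at 250 µM (880 as reported), and the comparison of doses from 1 to 20 at 48 h (7 as reported) and 0 to 4 at 24 h (2 as reported).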
